A study of Mus musculus with 10 samples.

Results

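The 10 genes described here encode immunoglobulin chains, parts of the B cell receptor and early lymphoid proteins, and they were measured in granulocyte-macrophage progenitors (GMPs), the bone marrow cells that give rise to neutrophils and monocytes. They were Ighm, Igkc, Jchain, Cd79a, Cd79b, Il7r, Rag1, Dntt, Ebf1 and Notch1, out of 27909 genes with any read. Ighm was picked for its fall in Mpc2-deleted GMPs in these same libraries, so its difference between the groups is given as a description with no test, while the other 9 genes were chosen for what they encode. The comparison asked whether Ighm moved with the B cell genes or alone.

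Multipotent progenitors transcribe some lymphoid genes at low levels before they commit to any lineage, which is called lymphoid priming. A committed B cell precursor rearranges its heavy chain gene with the RAG recombinase and terminal transferase (Dntt) under IL-7 receptor signals and the transcription factors EBF1 and PAX5, pairs the μ heavy chain (Ighm) with the surrogate light chain (Vpreb and Igll1) and displays it with CD79A and CD79B. The μ constant exons can also be transcribed from an unrearranged locus, without a variable segment. Plasma cells, at the far end of the B lineage, secrete antibody and express κ light chain (Igkc) and joining chain (Jchain) at very high levels.

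WT donors carried ROSA26 CreER+/- and recent Mpc2 KO donors carried Mpc2fl/fl; ROSA26 CreER+/-, so that both groups had one copy of the tamoxifen-activated recombinase, which is expressed from a ubiquitous promoter. All animals were male, on the C57Bl6/N strain, and received tamoxifen in their chow for 2 wk before harvest. MPC2 is a subunit of the mitochondrial pyruvate carrier. The cells were CD45.2+ donor GMPs from bone marrow chimeras made in irradiated CD45.1 hosts, enriched for CD27 and then sorted. Each group had 5 libraries, and each recent KO library came from a pool of 2 mice, so the spread in that group is between pools.

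The libraries held 14033776 to 19745405 estimated reads assigned to transcripts, and 12381 genes passed the filter on low counts and were tested. Mpc2 itself ranged from 60.9 to 117 normalized CPM (counts scaled to a common library size with edgeR's factors) in WT and from 17.1 to 43.9 CPM in recent KO GMPs. The granule genes that define GMPs, Mpo and Elane, averaged 22299 and 27252 TPM (a level per transcript length) in WT. Recent KO libraries 3 and 5 stood apart from the other 8 by their κ chain and Jchain reads. Recent KO libraries 3, 4 and 5 stood apart by their hemoglobin reads. The values of members that rest on these libraries are given with and without them. As these are bulk samples, fewer cells of a type and less RNA per cell cannot be told apart.

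The 2 annotated Ighm transcripts share the constant exons and differ at their ends. Their last coding bases are shown because they tell the secreted form from the membrane form. The gene lies on the minus strand of chromosome 12 (GRCm38, chr12:113418558-113422730) and overlaps no other annotated gene. Lower case marks the 15 coding bases of the last shared exon that precede the split, and capitals mark the bases found in that form alone. Ighm-201 reads through the splice site into 59 coding bases of the secreted tail (chr12:113420870-113420943), whereas Ighm-202 splices to exons that contribute 116 and 6 coding bases of the membrane anchor (chr12:113418829-113420943). The sequences are written 5′ to 3′ on the coding strand and end before the stop codon.
Ighm-201: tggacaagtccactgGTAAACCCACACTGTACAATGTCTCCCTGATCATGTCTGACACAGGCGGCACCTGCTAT
Ighm-202: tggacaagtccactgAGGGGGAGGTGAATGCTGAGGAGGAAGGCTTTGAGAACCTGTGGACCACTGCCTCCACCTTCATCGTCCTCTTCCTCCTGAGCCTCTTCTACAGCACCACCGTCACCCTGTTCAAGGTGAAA

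In WT GMPs, 2 of the 10 genes were well expressed, 1 was low and 7 were at or near the detection limit. By TPM the order was Ighm (70.4 ± 10.8, SD, n = 5), Cd79b (47.2 ± 6.05), Notch1 (1.09 ± 0.32), Igkc (0.985 ± 0.801), Cd79a (0.117 ± 0.057), Dntt (0.053 ± 0.044), Jchain (0.040 ± 0.047), Il7r (0.023 ± 0.018), Ebf1 (0.0066 ± 0.0092) and Rag1 (0.0059 ± 0.0058). Ighm lay above 93.8% and Cd79b above 91.9% of the genes with any TPM in WT. Ighm and Cd79b overlapped by a narrow margin across libraries, with a lowest Ighm of 55.9 TPM and a highest Cd79b of 56.4 TPM, but Ighm exceeded Cd79b within every WT library. Notch1 and Igkc overlapped, and the genes from Dntt down did not differ beyond their spread. Only Ighm, Cd79b and Notch1 passed the filter on low counts, and the other 7 members are described by their reads.

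Ighm, the constant region of the μ heavy chain, was lower in recent KO GMPs. The WT libraries 1 to 5 held 2376, 1861, 2381, 1269 and 2049 Ighm reads, which were 116, 103, 141, 98.6 and 123 normalized CPM. The recent KO libraries held 867, 1322, 966, 1212 and 1285 reads, which were 61.0, 92.5, 47.2, 73.8 and 66.2 CPM. On this scale every recent KO library lay below every WT library, with recent KO library 2 closest to WT. The groups averaged 116 ± 17.0 and 68.1 ± 16.7 CPM (SD, n = 5 each), a ratio of 0.585, and the fitted log2 fold change was -0.78 ± 0.15 (SE). Because this contrast chose Ighm, its size is no independent result. Per TPM the groups overlapped, since recent KO library 2 (61.4 TPM) exceeded the lowest WT library (55.9 TPM). Without recent KO libraries 3 and 5 the log2 fold change was -0.62. A gap between the groups is not rare in these data, as 2.43% of the tested genes did not overlap in normalized CPM.

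Both Ighm forms were lower in similar proportion. The secreted form Ighm-201, with the tail shown above, took 64.9, 63.8, 70.3, 68.7 and 62.3% of Ighm reads in the WT libraries and 65.97, 70.5, 69.9, 67.1 and 62.3% in the recent KO libraries. The membrane form Ighm-202 took the rest, 34.0 ± 3.37% in WT and 32.9 ± 3.28% in recent KO GMPs (SD, n = 5 each). The shares overlapped throughout, and they differed by -1.14 percentage points for Ighm-202, which did not pass (two-sided exact permutation test, p = 0.579, adjusted p = 0.579 over the 2 transcripts, smallest possible p = 0.00794). In normalized CPM, Ighm-201 averaged 77.0 ± 13.4 in WT and 45.8 ± 12.3 in recent KO, and Ighm-202 averaged 39.5 ± 5.74 and 22.3 ± 5.09. These shares are estimates by the quantification model, since most of both transcripts is common.

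Cd79b, which encodes the signaling chain CD79B of the B cell receptor, was not called, with group means of 59.7 ± 3.95 (WT) and 55.4 ± 6.53 (recent KO) normalized CPM (SD, n = 5 each). Its reads were 1342, 1040, 945, 737 and 1029 in WT and 850, 923, 1000, 859 and 999 in recent KO libraries. After scaling they were 65.7, 57.7, 56.1, 57.3 and 61.6 CPM in WT against 59.8, 64.5, 48.9, 52.3 and 51.5 CPM in recent KO. The groups overlapped, with recent KO libraries 1 and 2 inside the WT range and the other 3 below it. The log2 fold change was -0.11 ± 0.08 (SE; edgeR quasi-likelihood test, adjusted p = 0.729). Set against each other in TPM within a library, Ighm was 1.35, 1.36, 1.92, 1.32 and 1.54 times Cd79b in WT and 0.761, 1.11, 0.732, 1.11 and 0.966 times Cd79b in recent KO GMPs. All 5 WT ratios lay above all 5 recent KO ratios, a description that includes the selected gene.

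**Figure D1:**
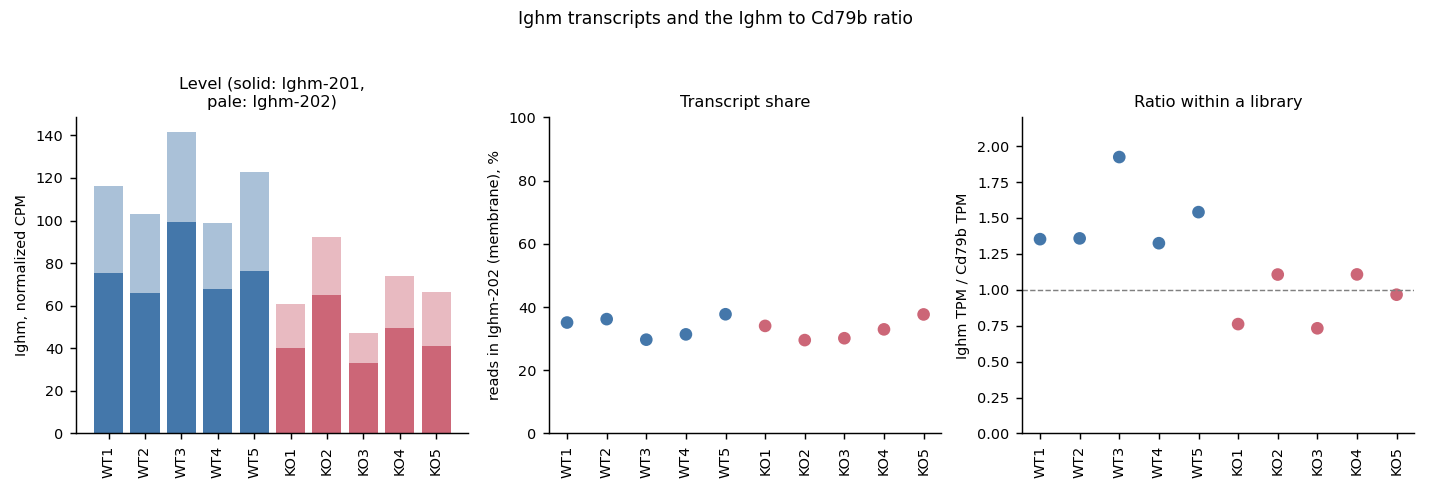
Left, Ighm in normalized CPM for each WT (blue) and recent Mpc2 KO (red) library, split into Ighm-201 (solid) and Ighm-202 (pale). Middle, the percentage of Ighm reads in Ighm-202. Right, the ratio of Ighm TPM to Cd79b TPM, with a dashed line at 1. Bars and points are single libraries. The level is lower in red, the transcript share stays between 29.5 and 37.7% in both groups, and the ratio runs from 1.32 to 1.92 in WT and from 0.732 to 1.11 in recent KO.

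Cd79a encodes CD79A, the obligate partner of CD79B in the receptor, and was almost absent. The WT libraries held 4, 5, 1, 3 and 2 Cd79a reads and the recent KO libraries 3, 2, 0, 0 and 12. Only recent KO library 5 was high, and all others were within a few counts of the floor of 3. With no filter on low counts its log2 fold change was 0.15 ± 0.87 (SE; edgeR, adjusted p = 0.977), and the sign turned without library 5 (-1.04). In both groups Cd79b thus stood beside few reads of its partner.

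The 2 antibody genes Igkc and Jchain behaved unlike Ighm, as they were high in 2 recent KO libraries and at background elsewhere. Igkc, the κ light chain constant region, had 3, 3, 8, 1 and 11 reads in WT and 2, 3, 302, 3 and 547 in recent KO. Jchain, which links antibody multimers, had 2, 3, 0, 0 and 1 reads in WT and 2, 2, 36, 2 and 42 in recent KO. Libraries 3 and 5 carried both, and the other 3 recent KO libraries lay within the WT range for Igkc and did not exceed it for Jchain. Igkc overlaps a long noncoding gene on its strand, Gm30211. In TPM, Igkc reached 47.9 in library 3 and 90.6 in library 5, above Ighm in the same libraries (30.5 and 42.1).

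Neither gene passed the filter on low counts. Without that filter, edgeR called both higher in recent KO (Igkc log2 fold change 4.83 ± 0.79 SE, adjusted p = 0.000243; Jchain adjusted p = 0.0178), and DESeq2 did too (adjusted p = 0.0457 and 0.0407). Without libraries 3 and 5, neither was called, and the Igkc value was -0.76 (adjusted p = 0.750) and the Jchain adjusted p was 0.806. Leaving out library 3 alone gave adjusted p = 1.0e-06 for Igkc and 0.0579 for Jchain, and leaving out library 5 alone gave 0.000559 and 0.129. The calls thus held for a pair of pools and not for the group of 5.

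The κ variable segments in these 2 pools differed from each other. Across 160 annotated Igkv segments, libraries 3 and 5 held 135 and 306 reads and the other 8 libraries held 1 to 7. In library 3, Igkv15-103 alone had 129 reads, or 95.6% of the Igkv reads. In library 5, Igkv6-15 had 160 and Igkv8-24 had 138, together 97.4%. Each of these 3 segments had 0 reads in all other libraries. They were named after their values were seen, as segments with at least 30 reads in a library. The variable exons of Igkv15-103 (GRCm38, chr6:68437628-68437925, plus strand) and Igkv6-15 (chr6:70406469-70406766, minus strand) are shown as the leading segment of each pool. They come from the reference annotation and not from reads, and capitals mark bases that differ from the nearest other annotated Igkv exon, which was Igkv10-94 (75.2% identity over 298 bases) and Igkv6-23 (94.6%). The nearest exon had 0 reads in every library for Igkv10-94 and at most 2 for Igkv6-23, although reads between close copies could be split.
Igkv15-103: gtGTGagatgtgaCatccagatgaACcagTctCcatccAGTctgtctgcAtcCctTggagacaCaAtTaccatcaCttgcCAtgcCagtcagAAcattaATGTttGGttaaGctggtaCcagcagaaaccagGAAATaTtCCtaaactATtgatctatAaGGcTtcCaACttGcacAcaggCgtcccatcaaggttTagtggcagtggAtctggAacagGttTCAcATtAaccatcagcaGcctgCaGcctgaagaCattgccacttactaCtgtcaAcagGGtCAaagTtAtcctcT
Igkv6-15: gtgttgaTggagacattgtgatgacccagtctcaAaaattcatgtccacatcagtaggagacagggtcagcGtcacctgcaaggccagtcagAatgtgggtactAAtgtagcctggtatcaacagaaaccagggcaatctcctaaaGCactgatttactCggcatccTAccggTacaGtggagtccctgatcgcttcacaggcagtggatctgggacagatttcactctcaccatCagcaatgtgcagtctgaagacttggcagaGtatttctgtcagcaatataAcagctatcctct

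The heavy chain segments followed the same pools. Ighv segments summed to 13, 38, 10, 8 and 16 reads in WT and to 15, 23, 59, 16 and 112 in recent KO libraries. Ighv1-19 had 44 reads in library 3, and Ighv2-9-1 and Ighv2-5 had 50 and 35 in library 5, with 0 in every other library. The class-switched constant genes Igha and Ighg2b had 159 and 101 reads in library 5 and at most 2 and 4 in any other. For each 100 Ighm reads there were 6.11 Ighv reads in library 3 and 8.72 in library 5, against 0.42 to 2.04 in the other 8 libraries. In all 10 libraries variable segment reads were thus fewer than Ighm reads. These counts were not scaled for length, and the Ighv1-19 exon has 302 bases where the Ighm transcripts have 1493 and 1698. The Igha and Ighg2b reads were also not part of the Ighm count. Of the 10 plasma cell markers, Xbp1 averaged 80.9 ± 13.6 TPM in WT and 64.4 ± 8.50 in recent KO (log2 fold change -0.39 ± 0.11, adjusted p = 0.226), Mzb1 had 0 reads in libraries 3 and 5, Irf4 had 0 in all recent KO libraries, and Prdm1 had at most 3 reads anywhere. Slamf7 had 16 reads in library 3 and 0 to 4 in the others, Sdc1 was highest in library 3 (62 reads against 18 to 48), and Jchain, given above, is on the same list. The summed level of the list was 248 to 351 CPM in WT and 196 to 240 CPM in recent KO, most of it Xbp1 and Txndc5, which had at least 1774 and 946 reads in every library. The part of plasma cells in the Igkc and Jchain reads was not tested.

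**Figure D2:**
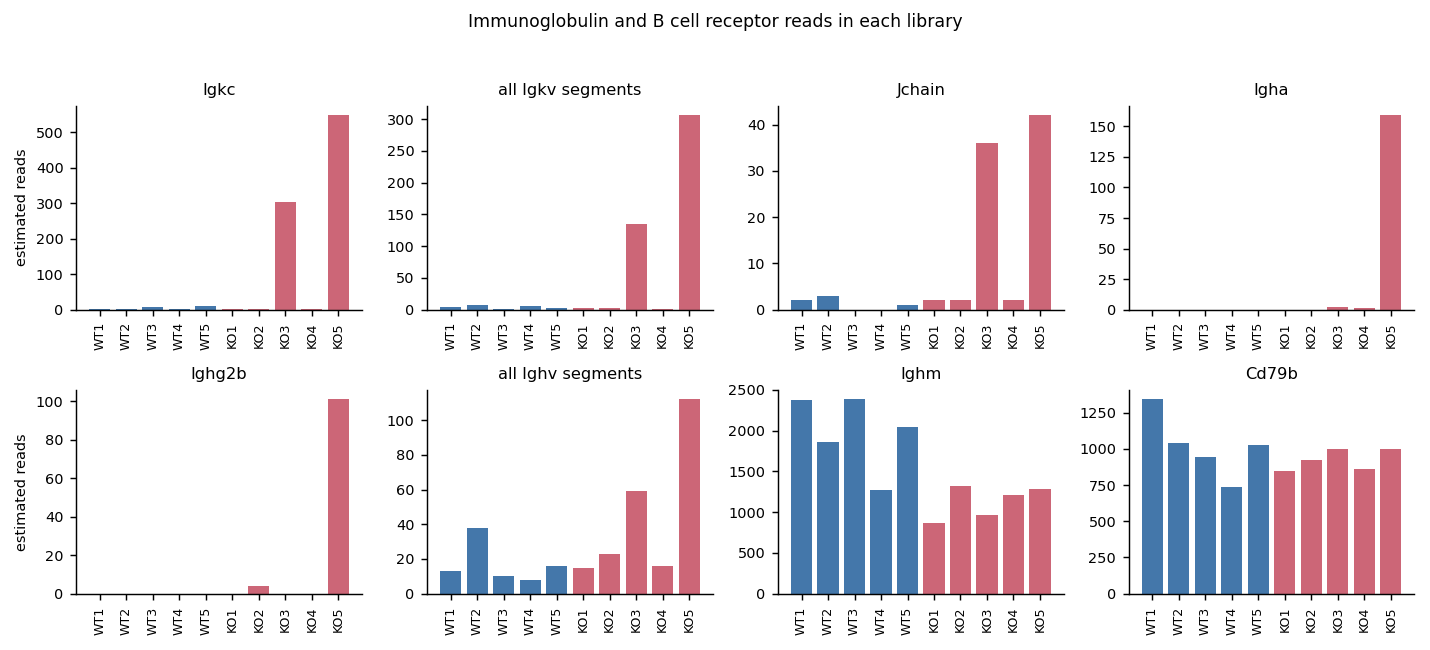
Estimated reads (linear axes from 0, a different scale in each panel) of immunoglobulin genes, summed variable segments and Cd79b in the 5 WT (blue) and 5 recent Mpc2 KO (red) libraries. Igkc, Igkv segments and Jchain stand out in recent KO libraries 3 and 5, Igha and Ighg2b in library 5 alone, while Ighm has 867 to 2381 reads in every library.

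Il7r, the receptor for the cytokine that sustains lymphoid precursors, had 1, 2, 2, 0 and 2 reads in WT and 1, 2, 1, 1 and 2 in recent KO libraries. Rag1, the catalytic subunit of the recombinase, had 0, 2, 0, 1 and 1 reads in WT and 0, 0, 0, 1 and 0 in recent KO. Ebf1, which commits cells to the B lineage, had 0, 2, 0, 0 and 1 reads in WT and 0, 0, 0, 0 and 3 in recent KO. All 3 stayed at or under 3 reads in all 10 libraries, so no fold is given and a difference between the groups was not detectable at this depth, where 3 reads amount to 0.147 to 0.233 normalized CPM. Rag1 lies within a longer annotated gene, and Ebf1 overlaps an antisense one.

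Dntt encodes terminal transferase, which adds untemplated bases during recombination. It had 3, 1, 1, 0 and 4 reads in WT and 0, 2, 18, 27 and 16 in recent KO libraries. Libraries 3, 4 and 5 were above every WT library and libraries 1 and 2 were within the WT range, so the groups overlapped. Its log2 fold change without the filter was 2.68 ± 0.78 (SE) and was not called (adjusted p = 0.112 in edgeR and 0.150 in DESeq2). It was 2.46 without libraries 3 and 5 (adjusted p = 0.265), 2.12 without library 4 (adjusted p = 0.496) and -0.51 without all 3 (adjusted p = 0.908), all chosen after seeing the data. Library 4, the highest for Dntt, had only 3 Igkc and 2 Jchain reads. Gzma, a granzyme gene from the T and NK cell list that was named after its values were seen, had 18, 21 and 21 reads in the same 3 libraries and 2 to 7 in the other 7. The hemoglobin gene Hba-a1 had 1212, 637 and 653 reads there against 23 to 194 elsewhere. The part of these other cells in the Dntt reads was not tested.

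Notch1, the receptor that directs progenitors toward the T lineage, was low and was not called. It had 196, 291, 185, 182 and 167 reads in WT and 170, 187, 224, 161 and 249 in recent KO libraries, or 9.59 to 16.1 and 9.80 to 13.1 normalized CPM. Recent KO libraries all fell inside the WT range. The log2 fold change was -0.05 ± 0.15 (SE; edgeR, adjusted p = 0.945), and its sign turned under 6 alternatives. Notch1 overlaps 2 noncoding genes at its end on the other strand, and the library kit does not mark strand.

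**Figure D3:**
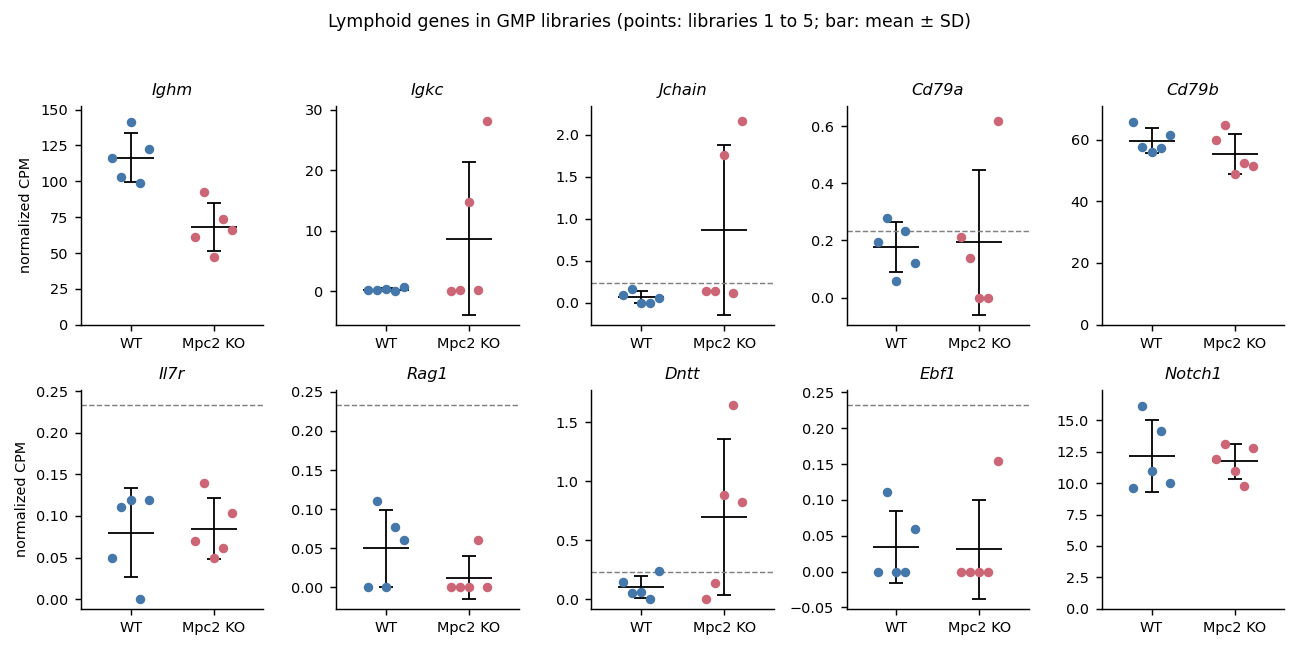
Normalized CPM of the 10 genes in WT (blue) and recent Mpc2 KO (red) libraries, 1 point a library in the order 1 to 5 from left to right, with the mean ± SD in black. The dashed grey line marks 3 reads in the shallowest library (0.233 CPM) and is drawn where the gene stays under 3 CPM. Axes differ between panels. Ighm separates by group, Cd79b and Notch1 overlap, and Igkc and Jchain are raised in 2 recent KO libraries.

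Among the members other than Ighm, 0 of the 2 tested genes were called in edgeR and 0 had an unadjusted p under 0.05, where 0.331% of all tested genes were called (41 of 12381, 15 higher and 26 lower). Without the filter on low counts, 2 members were called, Igkc and Jchain, where 0.738% of 27909 genes were, and DESeq2 called the same 2, where 1.09% of the 14360 genes with an adjusted p were. Both were higher in recent KO, opposite to Ighm, and in libraries 3 and 5 only. None of the members fell with Ighm past the threshold under the settings tried.

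The wider lymphoid lists held few calls. In the 8 lists for immunoglobulin constant genes, surrogate light chain, B lineage, recombination, early lymphoid regulators, IL-7 receptor signaling and the Notch pathway there were 100 genes besides Ighm, of which 57 were tested. None of the 57 was called by edgeR. An unadjusted p under 0.05 was found for 4 of them, or 7.02%, against 10.2% of all tested genes. Without the filter edgeR called 5 of 91 genes, all higher (Flt3, Igha, Ighg2b, Igkc and Jchain, with 0.738% of all genes called), DESeq2 called 3 of 66 (Flt3, Igkc and Jchain, with 1.09% of all genes called), and edgeR with library size alone called Flt3. Apart from Flt3, these are the genes whose reads lay in recent KO libraries 3 and 5, or in library 5 alone. The median log2 fold change was 0.03, beside -0.0018 for all tested genes, with 32 higher and 25 lower. Of the 57, only Notch4, with 5 to 20 reads a library, had a lower fitted value than Ighm (-0.85 ± 0.43, adjusted p = 0.531), and over all 12381 tested genes Ighm ranked 131 from the bottom.

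The surrogate light chain, which pairs with the μ chain in precursor B cells, was expressed at a modest level. Vpreb1 had 216, 214, 162, 106 and 216 reads in WT and 126, 91, 126, 208 and 238 in recent KO, and averaged 19.1 ± 3.69 and 17.1 ± 6.23 TPM (log2 fold change -0.20 ± 0.21, adjusted p = 0.817). Igll1 averaged 3.06 ± 1.21 and 3.33 ± 1.32 TPM (0.09 ± 0.32, adjusted p = 0.956). The groups overlapped for both genes. Vpreb2 had 0 reads, and Vpreb3 at most 5.

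In the B lineage list, 4 of 18 genes were tested and 0 were called by edgeR or DESeq2, with 1 at an unadjusted p under 0.05. Cd37, a leukocyte tetraspanin that myeloid cells also express, averaged 98.9 ± 4.33 TPM in WT and 91.2 ± 7.91 in recent KO (log2 fold change -0.18 ± 0.07, adjusted p = 0.354). Btk, a kinase of B and myeloid cells, averaged 19.8 ± 2.10 and 20.6 ± 2.41 TPM (0.01 ± 0.07, adjusted p = 0.985). Cd72 gave 0.29 ± 0.22 (adjusted p = 0.732). Genes that define B cells had few reads in every library. Pax5 had at most 3 reads, Cd22 4 and Ms4a1 6, and Blk and Pou2af1 had 0. The highest of the untested genes of this list were Blnk and Bank1, each with at most 14 reads, and Cd79a with at most 12. Ighd, which mature B cells transcribe together with Ighm, had 0 to 7 reads. The summed list ran from 243 to 265 CPM in WT and from 224 to 253 CPM in recent KO.

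Of the 12 recombination genes, 10 were tested and 0 were called, with a median log2 fold change of -0.14. Rag2, the partner of Rag1, had 14, 6, 11, 9 and 11 reads in WT and 1, 16, 11, 14 and 11 in recent KO (0.06 ± 0.47, adjusted p = 0.979). The abundant members, Hmgb1 (1829 ± 85.4 TPM in WT) and Hmgb2 (700 ± 16.9), are chromatin proteins whose use is not limited to recombination. Hmgb2 was the 1 gene of this list with an unadjusted p under 0.05 (-0.23 ± 0.10, edgeR adjusted p = 0.458). Of the 18 early lymphoid regulators, 14 were tested and 0 were called (median 0.06). Satb1, a chromatin organizer of early lymphoid progenitors, gave 0.39 ± 0.13 (adjusted p = 0.315), and Mef2c, a regulator shared with myeloid cells, gave 0.04 ± 0.08 (adjusted p = 0.917).

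Flt3, the cytokine receptor that marks multipotent and lymphoid-primed progenitors, went against Ighm in direction. It had 311, 184, 194, 147 and 239 reads in WT and 259, 540, 592, 336 and 355 in recent KO libraries, which were 10.2 to 15.2 and 18.2 to 37.8 normalized CPM. The groups did not overlap in CPM, which also held for 2.43% of all tested genes. It missed the threshold in edgeR (log2 fold change 0.98 ± 0.20 SE, adjusted p = 0.0597), and passed in DESeq2 (adjusted p = 0.000249) and in edgeR without the filter (adjusted p = 4.7e-05). It also missed with the replicate number as a block (edgeR, adjusted p = 0.240) and in limma on TPM (adjusted p = 0.230 and 0.236). With 1 library left out, edgeR gave log2 fold changes from 0.78 to 1.07 and adjusted p from 0.0455 to 0.173. Flt3 was named after its values were seen.

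In IL-7 receptor signaling, 10 of 11 genes were tested and 0 were called (median log2 fold change 0.12). Il2rg, the shared γ chain that pairs with IL-7Rα, averaged 53.9 ± 5.64 TPM in WT and 64.9 ± 14.9 in recent KO (0.22 ± 0.12, adjusted p = 0.541), so the common chain was present where Il7r itself was at the floor. In the Notch pathway, 18 of 27 genes were tested and 0 were called (median -0.01). The γ-secretase subunits Psenen (215 ± 16.0 TPM in WT) and Ncstn (20.6 ± 1.90) were among the most abundant, while the Notch target Hes1 had at most 8 reads.

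**Figure D4:**
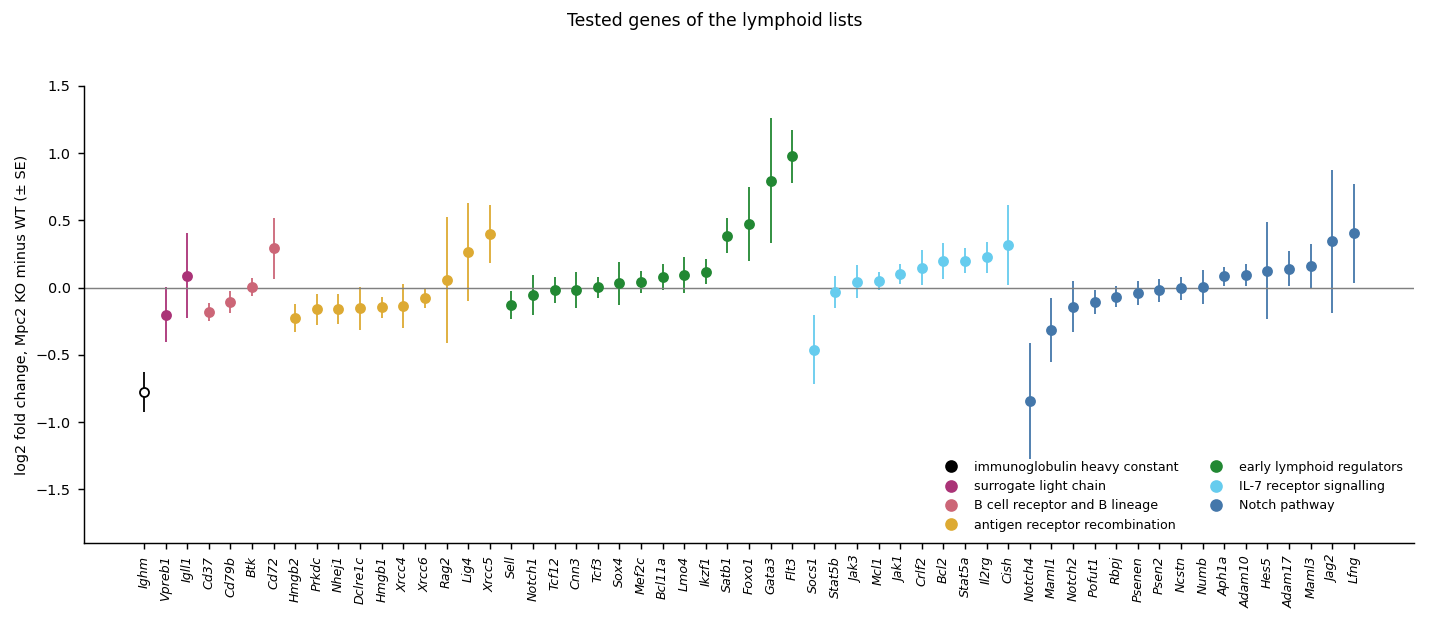
Log2 fold change (recent Mpc2 KO minus WT, ± SE, n = 5 each, edgeR) of tested genes of the lymphoid lists, ordered by value within each list and colored by list. The open circle is Ighm, which was chosen by this contrast. Ighm lies at -0.78, apart from the surrogate light chain and B lineage genes, which run from -0.20 to 0.29.

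Ighm was also compared with its neighbors on the chromosome and with the genes that varied most like it. Within 5 Mb of Ighm lay 68 other tested genes. The middle value of their log2 fold changes was 0.01, beside -0.0018 for all tested genes. Of the 68, 32 were lower, against 50.4% of all tested genes. An unadjusted p under 0.05 was reached by 11 of the 68, against 10.2% of all tested genes. Pld4, an endolysosomal nuclease gene of plasmacytoid and myeloid cells, was the 1 gene called there (-0.69, adjusted p = 0.0468). Calls made up 0.331% of all tested genes. Whether this region differed from the rest was not tested. After the group means were removed, the 5 genes with the highest Pearson correlation with Ighm over the 10 libraries were Arhgap17, Triobp, 1700012B09Rik, 1600012H06Rik and Klf13 (r = 0.92, 0.91, 0.91, 0.91 and 0.90 among 12380 genes), and none is an immunoglobulin or B cell receptor gene. Cd79b ranked 1025 (r = 0.54), Igll1 1795 (0.43), Vpreb1 4448 (0.16) and Notch1 8211 (-0.17). With 10 libraries and so many genes, these are descriptions only, and they share the libraries' depth and composition.

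Markers of other cells and of GMPs themselves moved beside Ighm. Of 14 GMP markers, 11 were lower, 0 were called in edgeR and 9 had an unadjusted p under 0.05, against 10.2% of all tested genes. Without the filter edgeR called 5 lower, Mpo, Elane, Prtn3, Cebpe and Fcgr3, where 0.738% of all genes were called. DESeq2 called 2 lower, Mpo and Fcgr3, where 1.09% of the genes with an adjusted p were called. The median log2 fold change of the 14 markers was -0.39, with Mpo at -0.52 ± 0.17, Elane at -0.63 ± 0.23 and Fcgr3 at -0.65 ± 0.15. Their summed level was 90324 to 127634 CPM in WT and 53929 to 92258 CPM in recent KO. Among recent KO libraries, library 3 was lowest and library 2 highest for both this sum and Ighm. Among WT libraries, library 4 had the highest sum and the lowest Ighm. The plasmacytoid dendritic cell list, which covers another source of lymphoid transcripts, had 5 of 10 genes tested and 0 called (median -0.14, summed 242 to 285 CPM in WT and 208 to 267 CPM in recent KO), and its defining gene Siglech had at most 4 reads.

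Of 10 macrophage markers, 9 were tested and 3 were called higher in edgeR, where 0.331% of all tested genes were called. These were C1qa, C1qb and C1qc (log2 fold changes 1.25, 1.35 and 1.59, adjusted p = 0.0406, 0.0160 and 0.0383). DESeq2 (1.09% of all genes called), edgeR without the filter (0.738%) and edgeR with library size alone each called 5 higher, adding Cd5l and Fcna. With the replicate number as a block, edgeR called 0. The list summed to 18.4 to 39.4 CPM in WT and 44.0 to 80.1 CPM in recent KO. None of the 10 neutrophil (207 to 548 CPM in WT, 213 to 943 CPM in recent KO), 9 erythroid (9.10 to 42.6 and 24.5 to 209 CPM), 8 basophil and mast cell (154 to 294 and 201.6 to 376 CPM) and 20 T and NK cell genes (1817 to 2636 and 1655 to 2209 CPM, almost all Nkg7) was called in edgeR. Of these, 10, 7, 8 and 7 were tested, and 6, 5, 3 and 3 had an unadjusted p under 0.05, against 10.2% of all tested genes. Without the filter edgeR called 5, 5, 2 and 1 of them, all higher (Camp, Ltf, Ngp, Retnlg and S100a9; Car1, Hba-a1, Hba-a2, Hbb-bs and Hbb-bt; Gata2 and Mcpt8; Lat), where 0.738% of all genes were called. Outside the macrophage list, DESeq2 called 1 gene of the lists in this paragraph, the basophil protease Mcpt8. The erythroid sum was 24.5 and 28.7 CPM in recent KO libraries 1 and 2, inside the WT range. It was 209, 143 and 126 CPM in libraries 3, 4 and 5, so the erythroid calls rest on these libraries. No fit of the erythroid genes without them is given here. Of the 7 tested T and NK cell genes, 5 were higher and 2 lower, with Nkg7 among the lower (log2 fold change -0.25). Those with an unadjusted p under 0.05 were Lck, Lat and Il2rb, all higher (0.62, 1.01 and 1.87, edgeR adjusted p = 0.238, 0.305 and 0.211). Il2rb had only 0 to 26 reads a library. The T cell receptor constant genes Trbc1 and Trbc2 had 0 to 18 reads. The part of these cells in the Ighm difference was not tested.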

How the data were processed

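RNA from sorted GMPs was sequenced as paired reads after SMARTseq V4 library preparation, which does not mark strand. The authors quantified transcripts of GENCODE M27 with Salmon (1.5.1 in the submitters' processing notes, which also name DESeq2 2.11.40.6). The deposited values are estimated counts and TPM per transcript. Here they were summed by gene with GENCODE M21 on GRCm38, matched by identifier without version (97.4% of transcripts, leaving out 0.348 to 0.390% of reads). A deposited table of the authors' own comparison was not used. Estimated counts were rounded and recent KO was compared with WT (5 libraries each) in edgeR 4.0.16 (TMM, quasi-likelihood test, minimum count 10, Benjamini-Hochberg adjusted p under 0.05). Each edgeR p-value compares the groups with a spread estimated over both together. That spread mixes differences between single mice in WT with differences between pools of 2 mice in recent KO. DESeq2 1.42.0 and limma 3.58.1 on log2(TPM + 1) and log2(TPM + 0.1) were alternatives. The edgeR code was tested on simulated data with 200 changed genes. It called 43% of the 1.5-fold and 75% of the 2-fold changes, and 4.07% of its calls were false. A gene that was not called can therefore still have changed. Transcript shares were compared with exact permutation tests (scipy 1.17.1), and variable exons were aligned with Biopython 1.88. Genes named are the 10 members, from each of 16 lists those called or highest in WT TPM as far as space allowed, the 5 genes most like Ighm, and those said to be named later. The members and lists were chosen with earlier results of these data known. Some genes of the lists are counted but not reported by name here.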

Additional observations from a re-analysis of the deposited data

Results flagged for a closer look

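In 3 of 29 groups of 5 libraries examined, over the members and the other genes named after their values were seen, a library lay far from the rest of its group. Chance gives about 1 in 20 for genes named without sight of their values. As some genes here were named after it, the count cannot be set against that rate. Igha was at 8.20 normalized CPM (159 reads) in recent KO library 5 against at most 0.0977 CPM (2 reads) in the other recent KO libraries. Ighg2b was at 5.21 CPM (101 reads) in the same library against at most 0.280 CPM (4 reads). Rag2 was at 0.333 CPM (6 reads) in WT library 2 against 0.653 to 0.699 CPM (9 to 14 reads) in the other WT libraries. Igha and Ighg2b are class-switched heavy chain genes. The source of these reads was not tested.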

How the results depend on the processing

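The count of 41 genes called (15 higher, 26 lower) rose to 206 without the filter on low counts and 156 in DESeq2, and fell to 26 with limma on log2(TPM + 0.1) (13 higher, 13 lower). Scaling by library size alone gave 46, with 26 higher and 20 lower. Leaving out 1 library gave 25 to 91, with 91 without recent KO library 2, 25 without library 3 or library 4 and 26 without WT library 3. Without recent KO libraries 3 and 5, chosen after seeing the data, 17 remained past the threshold. The count of members called other than Ighm was 0 and stayed 0 when any 1 library was left out, but was 2 without the filter and 2 in DESeq2. The Notch1 log2 fold change of -0.05 turned to 0.024 with library size alone and to 0.0020 and 0.013 with limma at pseudocounts of 1 and 0.1, and ran from -0.13 to 0.07 when 1 library was left out, with 0.074 without WT library 2, 0.0041 without WT library 4 and 0.0051 without recent KO library 4. Without the filter, Igkc turned from 4.83 to -0.76 without recent KO libraries 3 and 5, and Cd79a from 0.15 to -1.04 without library 5 and -0.60 without both. Without recent KO libraries 3, 4 and 5, Igkc was -0.78, Dntt turned from 2.68 to -0.51 and Cd79a to -0.011. In limma on TPM, Igkc was not called (adjusted p = 0.664 and 0.700). The cause of these changes was not tested. Cd79b was uncalled throughout. It stayed below 0 (-0.17 to -0.02) except without the filter and without recent KO libraries 3, 4 and 5, where it was 0.055. The Ighm log2 fold change stayed between -0.91 and -0.61. The Ighm-202 share differed by -1.03 points in TPM and by -2.34 to -0.21 points with 1 library left out, and Ighm-201 by 1.03 and by 0.21 to 2.34. Igkc, Jchain, Dntt and Cd79a rest on few reads, so 1 or 2 libraries decide their values.

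With the replicate number as a block, 20 genes were called (4 higher, 16 lower), and 0 members. Samples of the same number did not deviate together (correlations from -0.18 to 0.05, with 0 of 5 over 0.1, and no WT library correlated best with the recent KO library of its own number), so the labels share only a number and give no pairing.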
